A study of Homo sapiens with 6 samples.

Results

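Metallothioneins are small proteins in which clustered cysteines hold zinc and copper, and they buffer these metals in the cytosol, bind cadmium and react with oxidants. Here the family is the 9 genes MT1A, MT1B, MT1E, MT1F, MT1G, MT1H, MT1M, MT1X and MT2A, found by gene symbol alone out of 81496 gene symbols named on the arrays. Each of the 9 symbols was found once, so every gene has 1 probe set and no choice between probe sets was needed. The MT1 and MT2A genes lie side by side on human chromosome 16 and are transcribed when zinc rises, through the zinc-sensing factor MTF1 and its binding sites, the metal response elements. Glucocorticoids also raise their transcription, and in the breast the proteins are known as a stain of the basal and myoepithelial layer.

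The arrays compared MCF10.AT1, an HRAS-transformed, preneoplastic derivative of the human MCF10A breast epithelial line that is sensitive to fluvastatin, with MCF10.AT1-R, the resistant line derived from it by growth in fluvastatin, an inhibitor of HMG-CoA reductase, at doses raised from 1 µM through to 20 µM. The labels call the MCF10.AT1 cells untreated and give all samples the cell type breast cancer, and they print the same fluvastatin text for the samples of both lines. Whether the MCF10.AT1-R cells were still in fluvastatin when their RNA was taken is not given in the sources used here. The methods describe a medium with horse serum, epidermal growth factor, insulin and hydrocortisone, a glucocorticoid, for the panel of lines that holds MCF10.AT1. They name no separate medium for MCF10.AT1-R and do not state that it shared this one. MCF10.AT1-R is 1 selected line, and its 3 replicates and the 3 of MCF10.AT1 measure the spread within each line, not between independent selections.

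Total RNA was hybridised to Clariom D arrays, 1 for each of 3 samples a line. Values are log2 expression from the RMA method, 1 per probe set and array, and a difference of 1 is a doubling. The comparison used arrays A01 and A02 of MCF10.AT1 and B02, B03 and B04 of MCF10.AT1-R. The third MCF10.AT1 array, A03, was removed by the study as an outlier and is shown apart here. The Pearson correlation of A03 with the other arrays over 135750 probe sets was 0.779 to 0.795, while it was 0.967 to 0.977 among the other 5. The 8 markers of basal breast epithelium fixed for the check were above the 95th percentile of the negative control probe sets (2.99) on all 5 arrays. They were KRT5, KRT14, KRT17, TP63, CDH1, EGFR, ITGB4 and LAMB3. Of the 6 luminal markers, GATA3, FOXA1, KRT8 and KRT18 were above it on all 5 arrays and the hormone receptor genes ESR1 and PGR were not. Basal markers other than EGFR, which overlapped (0.08), were higher on every MCF10.AT1-R array. The summed log2 level of all 8 was 52.6 to 53.3 on the MCF10.AT1 arrays and 66.5 to 67.1 on the MCF10.AT1-R arrays. At a false discovery rate (FDR) of 5%, 6 of 8 were higher, against 0.758% of all probe sets tested. The luminal markers summed to 30.8 to 31.1 and 31.9 to 33.1, and 1 of the 6, the keratin gene KRT8, was higher past FDR 5% (1.11, adjusted p of 0.0358, limma). That call did not hold without the filters on expression and variance described below (adjusted p of 0.126, limma). Without them 5 of the 8 basal markers passed, and CDH1 did not (adjusted p of 0.0616, limma). The luminal markers KRT18 (0.85, adjusted p of 0.243 with both filters, limma) and GATA3 (0.18) were also higher on every MCF10.AT1-R array. With a variance trend, described below, KRT18 passed as well (adjusted p of 1.2e-28, limma). Whether these shifts have a part in the results below was not tested. Of the markers of other cell types, 3 of 5 for fibroblasts, 2 of 4 for leukocytes and 2 of 3 for endothelium were above the same limit on all 5 arrays. Their summed levels on the MCF10.AT1 and then the MCF10.AT1-R arrays were 25.03 to 26.1 and 23.2 to 23.8 for fibroblasts, 9.62 to 10.8 and 10.4 to 11.4 for leukocytes, and 11.8 to 12.0 and 10.2 to 10.9 for endothelium. In these lists DCN, a matrix proteoglycan, was lower past FDR 5% (-2.15, adjusted p of 3.9e-09, limma), as was the adhesion gene PECAM1 (-1.12, adjusted p of 0.0307). Without the filters their adjusted p were 0.0191 and 0.170 (limma), so the call of PECAM1 did not hold. The arrays of the lines overlapped for the other markers. In bulk RNA a lower share of cells and less RNA per cell cannot be told apart.

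RefSeq promoters (GRCh38.p14) were at hand for 4 of the 9 genes, and they are shown because the metal response element is the site through which zinc and the family are linked. Each line gives the 250 bases before the transcription start on the plus strand of chromosome 16, with every match to the core of the metal response element, TGCACNC or TGCGCNC on either strand, in capitals.
MT2A, chr16:56608334-56608583: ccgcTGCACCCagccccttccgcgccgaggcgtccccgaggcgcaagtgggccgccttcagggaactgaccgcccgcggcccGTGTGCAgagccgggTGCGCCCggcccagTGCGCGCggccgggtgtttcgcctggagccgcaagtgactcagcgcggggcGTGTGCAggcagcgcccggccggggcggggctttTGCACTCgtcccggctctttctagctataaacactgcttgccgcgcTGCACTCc
MT1B, chr16:56651636-56651885: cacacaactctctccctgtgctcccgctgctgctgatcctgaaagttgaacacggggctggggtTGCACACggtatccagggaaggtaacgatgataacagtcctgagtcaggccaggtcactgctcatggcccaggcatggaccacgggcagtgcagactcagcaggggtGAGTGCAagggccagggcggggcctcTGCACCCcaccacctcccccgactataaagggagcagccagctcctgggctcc
MT1H, chr16:56669564-56669813: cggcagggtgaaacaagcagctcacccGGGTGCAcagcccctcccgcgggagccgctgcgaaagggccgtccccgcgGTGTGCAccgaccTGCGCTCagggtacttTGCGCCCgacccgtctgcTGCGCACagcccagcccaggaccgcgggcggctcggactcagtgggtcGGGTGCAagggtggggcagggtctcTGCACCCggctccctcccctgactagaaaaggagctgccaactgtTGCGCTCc
MT1X, chr16:56682220-56682469: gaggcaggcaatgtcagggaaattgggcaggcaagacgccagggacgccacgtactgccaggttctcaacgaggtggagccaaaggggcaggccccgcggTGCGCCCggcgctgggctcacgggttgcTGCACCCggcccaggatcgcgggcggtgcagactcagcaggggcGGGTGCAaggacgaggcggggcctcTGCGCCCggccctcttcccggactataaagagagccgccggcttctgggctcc

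The promoter of MT1B held 3 matches, that of MT1X held 4, that of MT2A held 7 and that of MT1H held 8, and no matches overlapped. Among 35093 RefSeq promoters of the same length, 24.8% held at least 1 match, 1.58% held at least 3 and 0.120% held at least 5. In each of the 4 promoters a forward match began 53 or 54 bases before the start, and a reverse match lay 78, 79 or 88 bases before it. The promoters of MT1B, MT1H and MT1X shared 62.3% to 63.7% of their aligned bases, and each of them shared 54.0% to 55.3% with that of MT2A. The hexamer TGTTCT, part of the glucocorticoid receptor's site, was searched on both strands and had no match in these 4 windows. Of the promoters 12.4% held it. Other spellings of the site, and bases further upstream, were not searched, so a site outside this search would be missed. A TATA box spelled TATAAA on the forward strand was present in MT1B, MT1X and MT2A, against 6.80% of the promoters, and its letters were not in the window of MT1H. Matches of this kind are letters in a window and were not measured as bound sites.

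The values of the 9 genes lay close together in the lines, far above the negative controls, and none passed the test between the lines. MT2A, the isoform usually most abundant in epithelial cells, was 12.06 on A01 and 12.12 on A02, and 12.07, 12.08 and 12.17 on B02, B03 and B04. The lines overlapped, and the log2 change of MCF10.AT1-R against MCF10.AT1 was 0.02 with a 95% interval of -0.40 to 0.43. This interval, and those that follow for the other genes, come from limma over all 135750 probe sets without a filter. Because probe sets differ in how brightly they bind, no level of one gene is set against that of another.

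Of the MT1 genes, MT1X and MT1A had the smallest differences in mean. MT1X, among the most zinc-responsive isoforms, was 8.92 and 9.04 in MCF10.AT1 and 8.97, 8.93 and 9.04 in MCF10.AT1-R. MT1A, the next, was 9.80 and 9.90 in MCF10.AT1 and 9.81, 9.77 and 9.91 in MCF10.AT1-R. Their log2 changes were 0.00 (interval -0.42 to 0.41) and -0.02 (-0.43 to 0.40), and the arrays of the lines were interleaved for both. MT1G, an isoform silenced by promoter methylation in several carcinomas, gave 9.87 and 9.96 against 9.84, 9.84 and 9.94. Its change was -0.04, with an interval of -0.45 to 0.38, and A01, the lower MCF10.AT1 array, lay below B04 and above the other MCF10.AT1-R arrays.

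MT1B and MT1F had somewhat lower means in MCF10.AT1-R, with overlap. The 2 MCF10.AT1 values of MT1B were 9.64 and 9.89, and the MCF10.AT1-R values were 9.58, 9.69 and 9.73. A01 lay inside the range of MCF10.AT1-R, and the change of -0.10 had an interval of -0.53 to 0.34. For MT1F the values were 7.43 and 7.52 against 7.48, 7.09 and 7.49. The low mean of MCF10.AT1-R rested on B03, and without B03 the change of MT1F went from -0.12 to 0.015.

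In MT1E, MT1H and MT1M every MCF10.AT1-R array lay below both MCF10.AT1 arrays. MT1M was 7.69 and 7.95 in MCF10.AT1 (mean 7.82 ± 0.18, SD, n = 2) and 7.51, 7.55 and 7.50 in MCF10.AT1-R (7.52 ± 0.02, SD, n = 3). It had the widest range over the 5 arrays (0.452) and the largest change of the 9, -0.30, which is 1.23-fold. The MCF10.AT1-R values of MT1M were tight and the MCF10.AT1 values were spread, so that leaving out A02 moved the change to -0.17 and leaving out A01 moved it to -0.43. MT1E gave 9.65 and 9.76 (9.71 ± 0.08, n = 2) against 9.47, 9.42 and 9.63 (9.51 ± 0.11, n = 3), a change of -0.20 with an interval of -0.63 to 0.23. Its highest MCF10.AT1-R array, B04, came within the spread of replicates of the lower MCF10.AT1 array. MT1H gave 7.13 and 7.08 (7.11 ± 0.03, n = 2) against 6.97, 7.02 and 6.95 (6.98 ± 0.04, n = 3), a change of -0.12 with an interval of -0.53 to 0.29. The difference between the means of MT1H amounted to 1.09-fold.

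**Figure D1:**
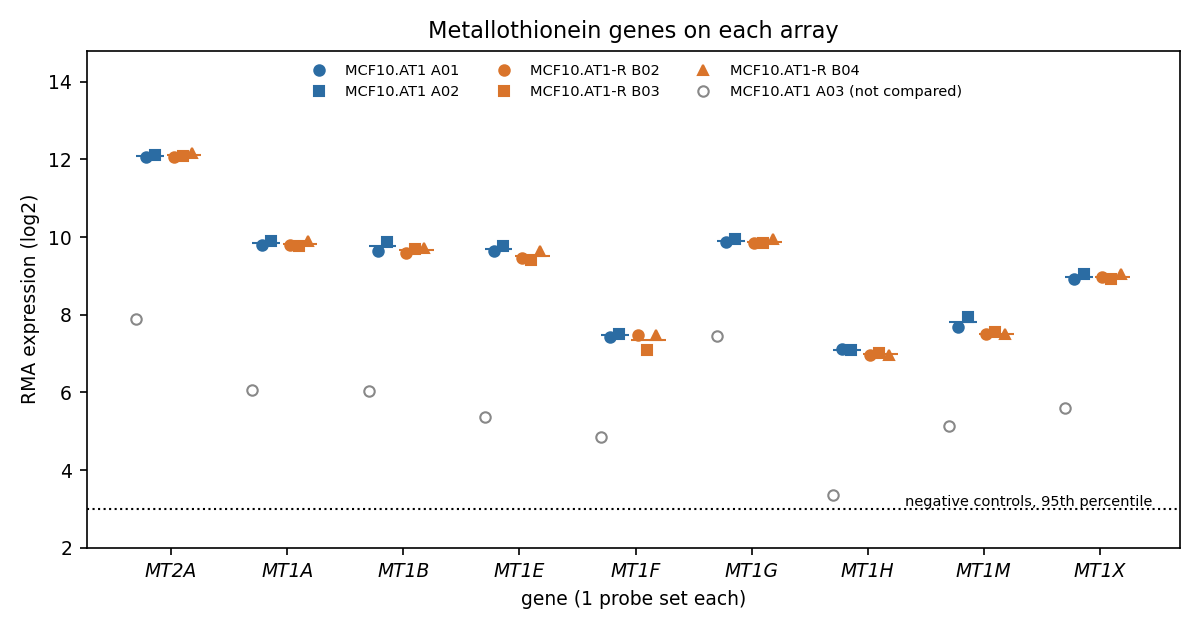
Log2 RMA expression (vertical axis) of the 9 genes, 1 probe set each, on every array, with short lines for the line means, blue for MCF10.AT1, orange for MCF10.AT1-R and hollow for the removed array A03. The filled points of each gene span 0.113 to 0.452 over the 5 arrays, and A03 lies below all of them for all 9 genes.

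Probe sets of low expression or little variance were removed before the test, namely those with a mean over the 5 arrays at or below the median of 1.88 or an SD at or below 0.176. All 9 genes were above the expression limit, and 8 were removed for their small SD, as were 24.2% of all probe sets above that limit. The probe sets behind this share were not matched to the family for level. Only MT1M was tested after both filters, with an adjusted p of 0.839 by limma with Benjamini-Hochberg adjustment over 51457 probe sets. Of these probe sets 1.2% passed FDR 5%, 0.758% as higher and 0.447% as lower in MCF10.AT1-R. Without any filter, when all 9 genes entered the test, 0 of 9 passed, against 0.13% of probe sets, and 0 of 9 had an unadjusted p under 0.05, against 6.7%. With the variance of each probe set allowed to follow its level, MT1M had an adjusted p of 0.494 (limma with a variance trend, under which 2.68% of probe sets passed, 1.69% as higher and 0.981% as lower).

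The intervals give the sizes of change that remain possible. Over the 9 genes the lowest interval limit was -0.73, for MT1M, and the highest was 0.43, for MT2A, which is 1.66-fold lower and 1.35-fold higher in MCF10.AT1-R. After both filters the interval of MT1M was wider, -0.91 to 0.31, as limma gave every tested probe set the same SE of 0.31. The median change was -0.10, with 8 changes below 0 and 1 above, while the median over all probe sets was 0.01. The median size of the change was 0.097 for the family and 0.19 over all probe sets above the expression limit. That limit is below the 95th percentile of the negative controls (2.99), and these probe sets were not matched to the family for level. Arrays of the lines did not overlap in 3 of 9 genes, all lower in MCF10.AT1-R, and in 26.1% of probe sets above the limit (13.2% as lower). These signs did not hold for MT1A, MT1B, MT1F, MT1G, MT1X and MT2A, which each turned without 1 of the 5 arrays. MT2A also turned to -0.00087 after a further quantile normalization and MT1X to 0.0020 with array weights. After both filters the smallest change past FDR 5% in any probe set was 1.07, and smaller ones passed with a variance trend. The genes share near-identical coding sequence, so that probes of one can bind transcripts of another and the 9 values are not independent.

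**Figure D2:**
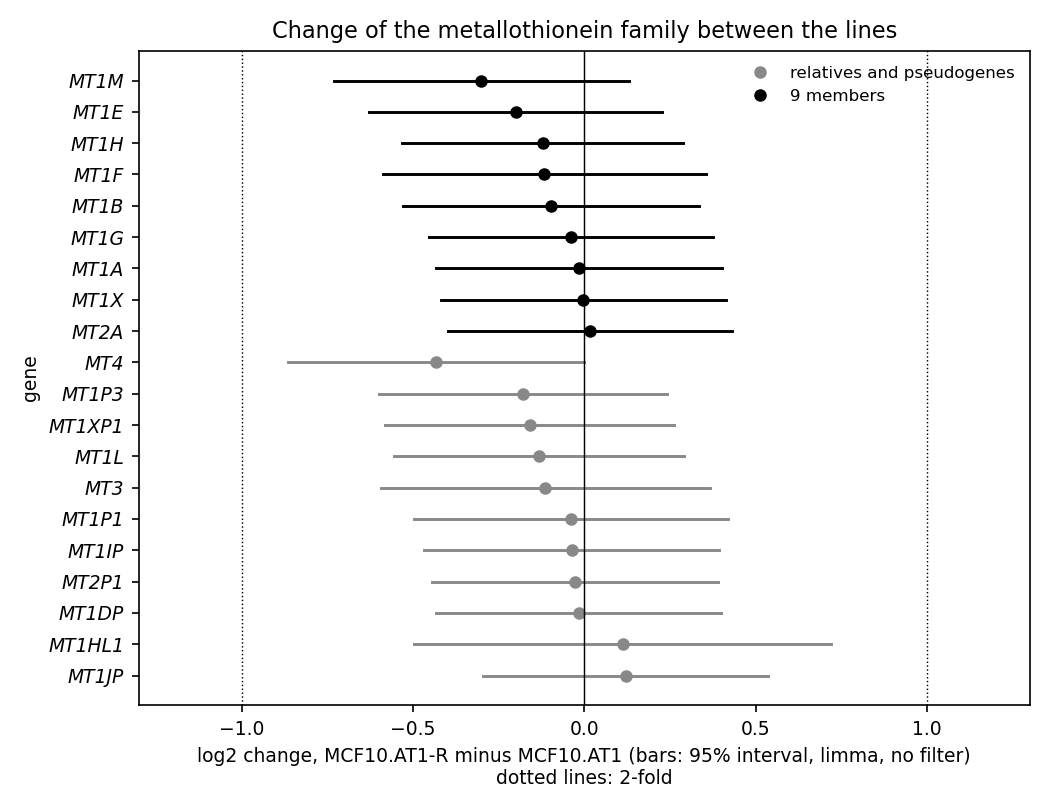
Log2 change of MCF10.AT1-R against MCF10.AT1 (horizontal axis; points) with 95% intervals (bars, limma without a filter) for the 9 genes in black and 11 relatives and pseudogenes in grey, with dotted lines at a doubling or halving. The intervals of the 9 genes lie between -0.73 and 0.43 and each includes 0.

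Replicates of a line also differed in a shared way over the family. A02 was above A01 in 8 of the 9 genes, against 51.9% of probe sets above the expression limit, and MT1H was the exception. B04 was the highest MCF10.AT1-R array in 7 of 9, against 34% of probe sets, the exceptions being MT1H and MT1M. The 9 log2 values summed to 82.2 on A01 and 83.2 on A02, and to 81.7, 81.4 and 82.4 on B02, B03 and B04, so that A01 lay inside the range of MCF10.AT1-R.

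Of 12 further genes and pseudogenes of the family, 11 had a probe set. MT3, the brain isoform, was 5.46 and 5.90 in MCF10.AT1 and 5.43, 5.63 and 5.64 in MCF10.AT1-R, with overlap. MT4, an isoform of stratified squamous epithelium, was 4.03 and 4.09 against 3.65, 3.48 and 3.76. Its lines did not overlap and its change of -0.43 was the largest in the family in the wide sense, with an adjusted p of 0.793 (limma, both filters). Among the pseudogenes MT1JP was 0.12 higher in MCF10.AT1-R without overlap, and MT1P3 and MT1XP1 were 0.18 and 0.16 lower without overlap. The remaining 6 of the 11 overlapped, with changes of -0.13 for MT1L, -0.04 for MT1P1, -0.04 for MT1IP, -0.03 for MT2P1, -0.02 for MT1DP and 0.11 for MT1HL1. MT1HL1, a coding gene in RefSeq, was above the negative controls on 1 of the 5 arrays only. None of the 11 passed FDR 5% with both filters, with the expression filter alone, without a filter or, where tested, with a variance trend. MT1P1, MT1P3, MT1XP1, MT2P1 and MT1HL1 lie on other chromosomes, and the others stand in the row on chromosome 16, where RefSeq orders MT4, MT3, MT2A, MT1L, MT1E, MT1M, MT1JP, MT1A, MT1DP, MT1CP, MT1B, MT1F, MT1G, MT1H, MT1IP and MT1X. The genes whose lines did not overlap were not next to each other in this row, apart from MT1E, MT1M and MT1JP, of which MT1JP went the other way.

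A03 was below all 5 other arrays in 9 of the 9 genes, against 22.4% of probe sets above the expression limit, with differences from their mean of -2.44 for MT1G to -4.23 for MT1E on the log2 scale. MT2A was 7.88 there and 12.06 to 12.17 elsewhere, and MT1H was 3.36 there and 6.95 to 7.13 elsewhere. MT1L, MT1IP and MT1HL1 were below all other arrays too, while MT1P1, MT3 and MT4 were within their range. The pseudogenes MT1DP, MT1JP, MT1P3, MT1XP1 and MT2P1 were above all other arrays, with differences from their mean of 0.26 to 1.06, as were 47.9% of probe sets above the limit. The fall on A03 was not particular to the family. A03 was below all other arrays in 8 of 8 basal and 4 of 6 luminal markers, and in 0 of 5 fibroblast markers. In the lists described below it was so in 29 of 35 zinc and copper, 10 of 12 glucocorticoid-responsive and 9 of 11 heat shock genes. It was so in 8 of 10 neighbours, where the difference reached -6.60. Background probe sets of high GC content averaged 5.38 on A03 and 3.82 to 4.24 on the other arrays, and their part in these values was not tested.

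**Figure D3:**
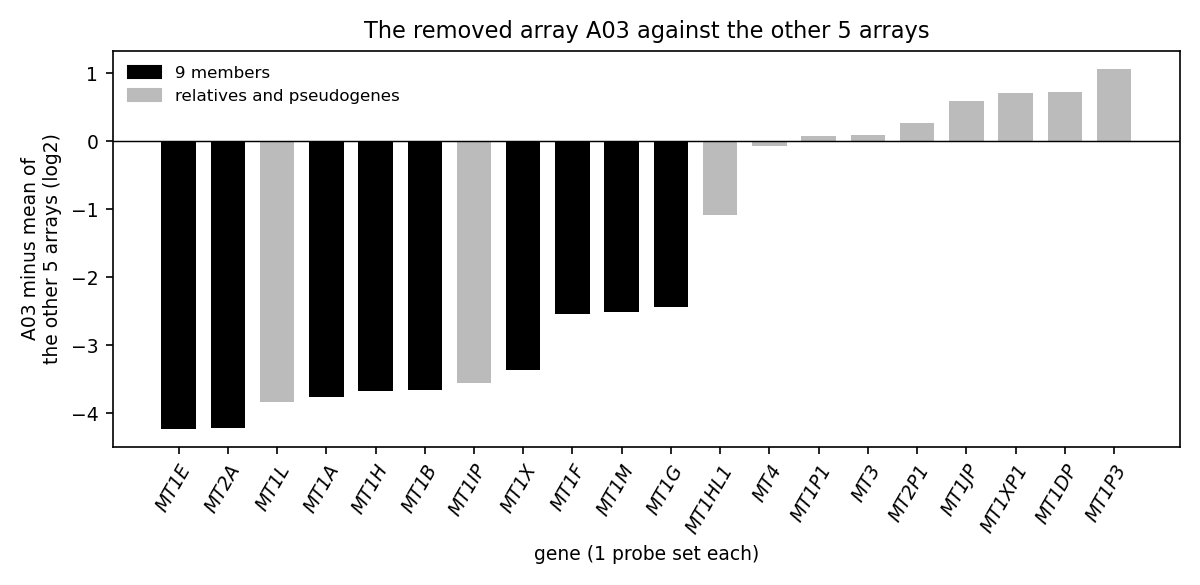
Difference in log2 RMA expression between the removed array A03 and the mean of the other 5 arrays (vertical axis) for each gene of the family (bars, 1 probe set each), with the 9 genes in black and relatives and pseudogenes in grey. The 9 genes lie at -4.23 to -2.44, and the 5 pseudogenes that were above every other array lie at 0.26 to 1.06.

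Genes that sense, import, export or bind zinc and copper, copper chaperones and SOD1 among them, were examined next, since metallothioneins buffer these metals. Of 36 such genes 35 had a probe set and 18 were tested after the filters, and 0 passed FDR 5%, against 1.2% of probe sets. MTF1, the factor that binds the metal response element, was 6.41 and 6.64 in MCF10.AT1 and 6.86, 6.69 and 6.42 in MCF10.AT1-R, with overlap (change 0.13). SLC30A1, the zinc exporter that MTF1 induces along with the metallothioneins, was 6.46 and 6.60 against 6.18, 6.04 and 6.38. All its MCF10.AT1-R values were lower, and its change of -0.33 had an adjusted p of 0.835 (limma). The largest changes of the list were in SLC31A2, a copper transporter of endosomes and lysosomes, and SLC30A4, a zinc exporter of intracellular vesicles. SLC31A2 was 4.98 and 4.89 in MCF10.AT1 and 5.92, 5.49 and 6.13 in MCF10.AT1-R, a change of 0.91 with an adjusted p of 0.163 (limma). SLC30A4 was 5.34 and 4.72 against 5.91, 5.58 and 6.08, a change of 0.82 with an adjusted p of 0.278 (limma). Both had all MCF10.AT1-R arrays above both MCF10.AT1 arrays, and both passed under limma with a variance trend, with adjusted p of 0.00964 and 0.0282. COX11, a copper chaperone of cytochrome c oxidase chosen for mention after its values were seen, also passed that fit, as lower (-0.54, adjusted p of 0.0315, limma). With the variance trend 3 of the 18 tested genes passed, against 2.68% of probe sets. Arrays of the lines did not overlap in 17 of the 35 genes, against 26.1% of probe sets above the expression limit. Of these genes 11 were higher and 6 lower in MCF10.AT1-R. The median change of the list was 0.13, with 23 genes above 0 and 12 below.

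Glucocorticoid-responsive genes were listed because the medium described in the methods held hydrocortisone. All 12 had a probe set and 9 were tested. ZBTB16, a transcription factor strongly induced by glucocorticoids, was 5.02 and 4.87 in MCF10.AT1 and 3.68, 3.77 and 3.46 in MCF10.AT1-R. It fell by 1.31 (SE 0.31), or 2.47-fold, with an adjusted p of 0.00436 (limma), the 1 gene of the list to pass, against 0.447% of probe sets as lower. The call did not hold without A01 (adjusted p of 0.209, limma) or without A02 (0.0973), nor without the variance filter (0.0604) or any filter (0.0740), while the change stayed between -1.38 and -1.22 when any 1 array was left out. NR3C1, the glucocorticoid receptor itself, was 6.61 and 6.62 in MCF10.AT1 and 6.54, 6.65 and 6.37 in MCF10.AT1-R. Its lines overlapped, with a change of -0.09 and an interval of -0.52 to 0.34. FKBP5, a co-chaperone of that receptor, and ERRFI1, an inhibitor of EGFR, were chosen for mention after their values were seen. FKBP5 was 8.82 and 8.82 against 7.87, 7.77 and 7.87, a change of -0.98 (adjusted p of 0.101, limma), and ERRFI1 changed by -0.58 (adjusted p of 0.645). With a variance trend both passed (adjusted p of 1.5e-11 and 7e-07, limma). With ZBTB16 that made 3 of the 9 tested genes, against 0.981% of probe sets as lower under that fit. The list had a median change of -0.41, with 11 of 12 changes below 0 and 7 of 12 genes with all MCF10.AT1-R arrays below MCF10.AT1, against 13.2% of probe sets, whereas the metallothioneins had a median of -0.10.

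Genes that rise with cadmium, oxidants or heat, the other triggers of metallothionein transcription, had a single call. Of 11 genes, all with a probe set, 5 were tested, and CRYAB, a small heat shock protein, was the 1 to pass, against 0.758% of probe sets as higher. CRYAB was 1.94 and 2.23 in MCF10.AT1, which is within the negative controls, and 4.50, 3.88 and 4.07 in MCF10.AT1-R. The change was 2.06 (adjusted p of 2.2e-08, limma, and 0.0203 without a filter). With values raised to the level of the negative controls it was at least 1.16 (adjusted p of 0.319, limma). HMOX1, heme oxygenase, which cadmium and oxidants induce, was 3.19 and 3.44 against 3.28, 3.13 and 3.08, with overlap and a change of -0.15. With a variance trend DNAJB1 (0.47) and HSPB1 (0.41), a co-chaperone and a small heat shock protein named after their values were seen, passed as higher as well. That made 3 of the 5 tested genes, against 1.69% of probe sets as higher under that fit. The median change of the list was 0.04.

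**Figure D4:**
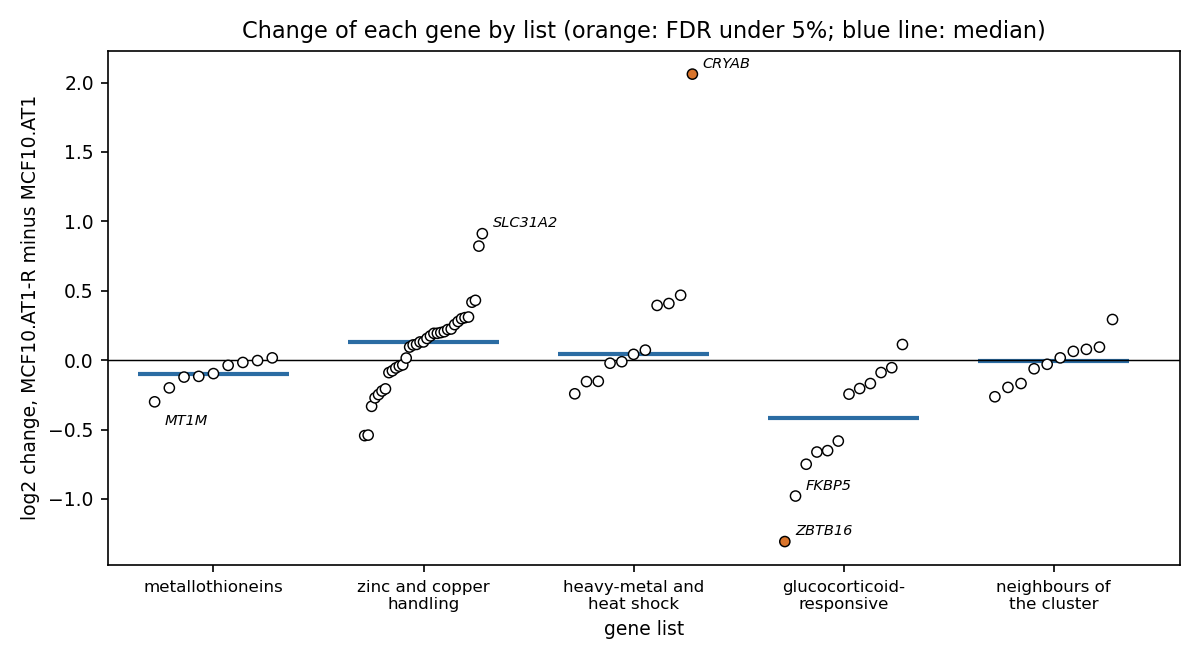
Log2 change of MCF10.AT1-R against MCF10.AT1 (vertical axis) of each gene with a probe set, in 5 lists, with orange points past FDR 5% after both filters and blue lines at the list medians. The metallothioneins span -0.30 to 0.02, and the glucocorticoid-responsive list has its median at -0.41.

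Genes on either side of the row on chromosome 16 had no call. Of 10 neighbours, all with a probe set, 5 were tested and 0 passed FDR 5%, against 1.2% of probe sets. BBS2, part of the complex that sorts cargo to cilia, stands before MT4 and was 3.14 and 3.07 in MCF10.AT1 and 3.11, 2.51 and 3.51 in MCF10.AT1-R, close to the negative controls. NUP93, a nuclear pore protein, stands after MT1X and was 5.69 and 5.50 against 5.49, 5.71 and 5.82, a change of 0.08 with overlap. HERPUD1, an endoplasmic reticulum stress protein, had the largest change (0.29, with overlap), and CETP, a lipid transfer protein, the next (-0.26), at a level within the negative controls. The median of the neighbours was -0.01.

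Among 81476 symbols outside the family, the pattern over the 5 arrays most like that of MT1M, the gene with the widest range, was sought by the root mean square difference of log2 values after each gene was centred on its own mean. The 5 closest were wojoybu, RP11-361A23.3, RNU1-97P, vorbaw and a further transcript named after its clone, with differences of 0.011 to 0.022. Of these 5, 4 lay below the limit of 2.99 on all arrays. With so many symbols and 5 arrays, closeness of this size is a description only.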

How the data were processed

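Expression was profiled on 6 Clariom D arrays. The authors preprocessed the raw signals by RMA with the packages affy and oligo and deposited log2 values, 1 per probe set and array, for 135750 transcript probe sets and 2995 controls. The genome build of the annotation is not given in the sources used here. Array names carry no sample title, and their line was taken from the legend of the study's principal component plot. RMA sets all arrays to one distribution, so a change common to most transcripts is not seen.

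Probe sets with a mean above the median (1.88) and an SD above the lowest 25% (0.176) over the 5 arrays were fitted with limma 3.58.1 in R 4.3.3 (lmFit, eBayes, two-sided), with Benjamini-Hochberg adjustment and FDR 5%. These limits were set here, as the methods name none. A filtered-out gene was read from the fit without filters. The procedure was tested on simulated data. The number of arrays limits the precision, and GEO's labels call the replicates biological. A gene's main probe set is the one with the highest mean. The letter A or B in the array names follows the line, and its meaning is not given in the sources used here. Anything it marks cannot be told apart from the line. Promoters were aligned with Biopython.

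Named are all 9 genes, the relatives found, of each list the genes past FDR 5% or else the 2 with the largest change, and MTF1, SLC30A1, NR3C1, HMOX1, BBS2 and NUP93, with the 5 symbols closest in pattern to the gene of the widest range. Genes named outside this rule are given as chosen after their values were seen, or are cell type markers. The members and lists were chosen with earlier results of these data known. Alternatives were array A03 added, each array left out, array weights, other filters, further normalization, a variance trend, robust eBayes and a floor at the negative controls.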

Additional observations from a re-analysis of the deposited data

Results flagged for a closer look

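Array A03, labelled MCF10.AT1 and used in no comparison, carried values of 5 metallothionein pseudogenes above those of every other array. Among the other pseudogenes, MT1L and MT1IP were below every other array and MT1P1 was within their range. MT1DP was 9.31 on A03 and 8.52 to 8.66 on the others. MT1JP was 10.3 against 9.62 to 9.86, and MT1P3 was 10.4 against 9.21 to 9.47. MT1XP1 was 7.71 against 6.86 to 7.16, and MT2P1 was 10.7 against 10.4 to 10.5. The same array was below all others for the 9 genes and MT1HL1, while the coding genes MT3 and MT4 were within their range. Of all probe sets above the expression limit, 47.9% were above every other array on A03, and its background probe sets of high GC content averaged 5.38 against 3.82 to 4.24. Their part in the pseudogene values was not tested.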

How the results depend on the processing

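No metallothionein passed FDR 5% where it was tested under the 14 alternatives. MT1M was tested in all of them. The 8 genes removed for their small SD were tested only with the low-expression filter alone and with no filter. The other alternatives kept the probe sets of the main test, so these genes could not be called there. Their adjusted p there came from the same alternative fitted to all probe sets. The lowest, 0.339 (limma), was of this kind, for MT1E and MT1H with the floor. Adding A03 to MCF10.AT1 gave changes of 1.24 for MT1A, 1.14 for MT1B, 1.25 for MT1E, 0.76 for MT1F, 0.78 for MT1G, 1.13 for MT1H, 0.60 for MT1M, 1.12 for MT1X, 0.89 for SLC30A1, 1.41 for NR3C1 and 0.39 for BBS2, all of which had been below 0. It moved MT2A to 1.42, MTF1 to 1.45 and NUP93 to 0.90. It left 44 probe sets past FDR 5%, with 0 in the glucocorticoid list and 0 in the heat shock list. Leaving out 1 array at a time gave -0.068 to 0.035 for MT1A, -0.22 to 0.024 for MT1B, -0.18 to 0.015 for MT1F, -0.081 to 0.0061 for MT1G, -0.063 to 0.057 for MT1X, -0.016 to 0.048 for MT2A, -0.30 to 0.21 for BBS2 and -0.013 to 0.17 for NUP93. It gave 280 (without A02) to 575 probe sets past FDR 5%, with 315 without A01, against 620, and 0 to 1 glucocorticoid genes. The low-expression filter alone gave 182 probe sets and 0 glucocorticoid genes, and no filter gave 177 and 0. A variance trend gave 1377 probe sets, 3 zinc and copper genes, 3 glucocorticoid genes and 3 heat shock genes. The floor gave 177 probe sets, 0 heat shock genes, FKBP5 in place of ZBTB16 (adjusted p of 0.0331, limma) and 0.10 for BBS2. MT2A was -0.00087 after repeated quantile normalization and with array weights MT1X was 0.0020 and BBS2 0.0024. The causes were not tested. Of 126 alternative values of the 9 genes, 106 kept their direction and 20 reversed. Of 112 values for MTF1, SLC30A1, NR3C1, HMOX1, BBS2, NUP93, ZBTB16 and CRYAB, 97 kept direction and call. Other genes named in the text are not in this count. No metallothionein had several probe sets, so a mean over them was not run. No paired analysis was possible because the array columns carry no replicate numbers. Signal was far above the negative controls for the 9 genes and limits BBS2, HMOX1, CETP and CRYAB.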
